A study of Homo sapiens with 17 samples.

Results

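Regions between closely paired gene ends were places where 2 neighbouring protein-coding genes almost touched. A pair was taken where the facing annotated ends of 2 non-overlapping genes on chromosomes 1 to 22 lay at most 1 kb apart in the RefSeq annotation of GRCh38.p14. Its region was the gap plus 1 kb on both sides. The rule found 1993 such regions, formed by 3650 of 19126 genes, among 36259 regions at protein-coding gene ends in all. They were set against 18848 lone gene ends, which had no other protein-coding gene within 10 kb and were taken with 1 kb on both sides. Of these genes 336 were in 2 pairs, so neighbouring regions can share sequence and intervals. The rule reads gene positions only, and these regions were taken up with earlier results of the same data known.

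The data were 8 peak lists of Flag chromatin immunoprecipitation sequencing from Caco-2/15 cells, a colon cancer line that turns enterocyte-like after it reaches confluence. The groups were 7 days postconfluent cells with Flag on H2A.Z.2 (2 lists), subconfluent cells with Flag on H2A.Z.2 (2 lists), postconfluent cells with Flag on H2A.Z.1 (2 lists) and subconfluent cells with Flag on H2A.Z.1 (2 lists), with lists named Exp1 and Exp2 in each group. Every group was heterozygous: CRISPR-Cas9 editing had added Flag at the 3′ end of H2AFZ, the gene of H2A.Z.1, or of H2AFV, the gene of H2A.Z.2, and the other allele was untagged. The tag shows where the tagged isoform lies and not the untagged copies. The 9 other samples of the series were not analysed here.

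H2A.Z is a variant of histone H2A that is put into nucleosomes beside the starts of active or poised genes, usually the nucleosomes flanking a nucleosome-depleted start. Its isoforms H2A.Z.1 and H2A.Z.2 differ by a few amino acids and are encoded by separate genes. Paired gene ends come in 3 orientations. In a divergent pair the starts face each other and share the gap as a bidirectional promoter, in a tandem pair the far end of an upstream gene lies before the start of the next, and in a convergent pair both far ends meet. The strand was known for both genes of 1438 pairs, of which 733 were divergent, 371 tandem and 334 convergent, while 555 were of unknown orientation. Median gaps were 169 bp in divergent, 475 bp in tandem and 365 bp in convergent pairs.

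The sequences of 5 divergent gaps are given first because they span the kinds of bidirectional promoter that the values below turn on. All are RefSeq letters of GRCh38.p14 on the + strand, from the base after the left gene to the base before the right gene. Capitals mark matches to the GC box GGGCGG, which reads CCGCCC on the other strand, to CCAAT, which reads ATTGG there, to the ETS core CCGGAAG, which reads CTTCCGG, to TATAAA, which reads TTTATA, or to the E-box CACGTG. A match is only a run of letters and not a shown binding site.
DDX31/GTF3C4, chr9:132669984-132670034, among the strongest regions in all 8 lists: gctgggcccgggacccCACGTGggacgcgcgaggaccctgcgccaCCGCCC
KBTBD4/NDUFS3, chr11:47578971-47579073, with 2 ETS matches, 1 of which overlaps a GC box: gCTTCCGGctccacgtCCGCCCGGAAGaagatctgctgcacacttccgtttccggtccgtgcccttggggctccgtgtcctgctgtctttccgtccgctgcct
SARS2/MRPS12, chr19:38930764-38930943, with 4 CCAAT matches: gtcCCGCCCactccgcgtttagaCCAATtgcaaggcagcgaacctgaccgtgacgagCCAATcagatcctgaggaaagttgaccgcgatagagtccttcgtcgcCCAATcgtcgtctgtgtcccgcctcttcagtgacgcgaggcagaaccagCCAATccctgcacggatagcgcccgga
COL4A1/COL4A2, chr13:110307158-110307283, a divergent gap with an interval in 1 list only: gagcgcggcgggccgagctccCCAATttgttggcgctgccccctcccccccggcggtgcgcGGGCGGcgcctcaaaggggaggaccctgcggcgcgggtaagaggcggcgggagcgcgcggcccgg
H2AC17/H2BC17, chr6:27893186-27893424, a histone gene pair with used intervals in the postconfluent lists only: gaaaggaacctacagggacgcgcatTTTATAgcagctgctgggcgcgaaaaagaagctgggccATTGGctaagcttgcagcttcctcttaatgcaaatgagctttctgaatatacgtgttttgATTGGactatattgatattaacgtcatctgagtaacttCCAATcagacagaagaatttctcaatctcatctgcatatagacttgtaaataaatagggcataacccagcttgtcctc
The gap of KBTBD4/NDUFS3 was 65.0% G and C and that of COL4A1/COL4A2 80.2%, whereas that of H2AC17/H2BC17 was 41.4%. DDX31/GTF3C4 reached 82.4% and was present in all 8 lists.

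The lists held 30603 to 79425 intervals, so each was shortened to the 30603 with the highest −log10 p, as many as the shortest list had. The intervals used covered 18.5 to 30.4 Mb a list and had median widths of 474 to 873 bp. A region was present in a list where at least 1 of these intervals overlapped it by at least 1 bp. Its percentile, from 0 to 100, was the rank of its strongest interval by fold enrichment within the list. The lists give no read depth, and the labels do not say whether Exp1 and Exp2 were separate cultures, so every p-value measures only the spread between lists. Interval names showed that the 4 Exp2 lists shared 1 sequencing run, while in Exp1 the H2A.Z.2 lists came from one run and the H2A.Z.1 lists from another. Gene ends of 6 of 12 intestinal epithelial markers had intervals in all 8 lists, against 1 of 6 fibroblast, 0 of 5 blood and 0 of 4 neuron and muscle markers. The transcription factors CDX1, CDX2 and HNF4A were among the 6, while CDH17 and KRT20 had no interval in any list.

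Paired gene ends carried tagged H2A.Z far more often than lone ends, and divergent pairs nearly always did. An interval was present at 63.4% ± 1.1 of the paired regions and at 30.6% ± 0.6 of the lone ends (SD over 8 lists), with shares from 61.4% to 64.5% at pairs and from 29.7% to 31.5% at lone ends. The difference of 32.8 percentage points was positive in 8 of 8 lists (2-sided exact sign-flip permutation over lists, p = 0.00781, the smallest that 8 lists allow; Benjamini-Hochberg adjusted p = 0.0104 over 12 such tests). A paired region holds 2 gene ends and a lone region 1. Against genes with both ends lone, counted as present where either end had an interval, the difference was smaller, at 63.4% of paired regions and 51.9% of lone genes (11.5 percentage points, higher in 8 of 8 lists, exact permutation adjusted p = 0.00938).

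Divergent pairs, with 2 starts in a region, stood highest. Intervals were present at 93.9% ± 0.7 of the 733 divergent regions, between 92.6% and 94.8%, and at 56.7% ± 0.9 of the 7841 lone starts, between 55.3% and 58.1% (SD, 8 lists). Divergent regions were higher in 8 of 8 lists, by 37.3 percentage points (exact permutation p = 0.00781, adjusted p = 0.0104). Tandem pairs had an interval at 64.1% ± 1.8 of 371 regions, against 51.9% ± 1.0 of the 5077 genes with both ends lone, which is 12.2 percentage points more in 8 of 8 lists (exact permutation, adjusted p = 0.0104). With 15301 intervals a list the difference was 5.29 percentage points and with an equal covered length 7.28, and both passed. Convergent pairs, whose facing ends are both far ends, had an interval at 8.65% ± 1.21 of 334 regions. Whether another gene start lay in or near these regions was not tested. Lone far ends had an interval at 2.66% ± 0.25 of 6948, and the difference was 5.99 percentage points (adjusted p = 0.0104, exact permutation). Counted by summits in the region it was 3.80 percentage points more, which also passed. The order divergent, tandem, convergent held in each list with no overlap between their ranges.

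**Figure D1:**
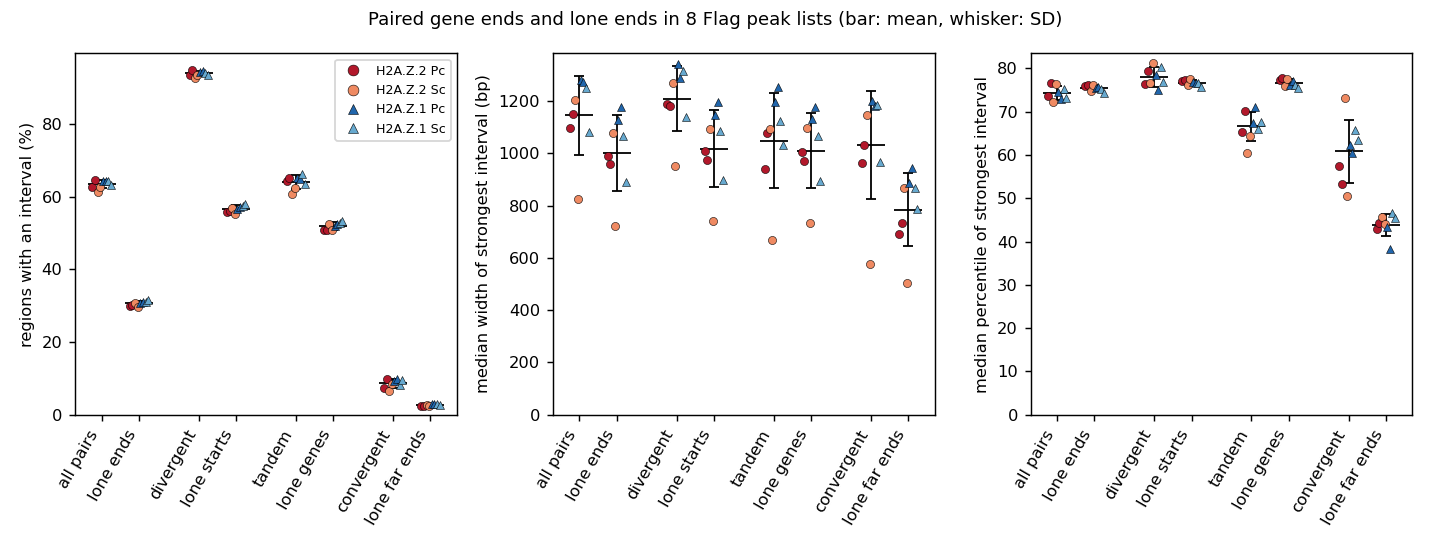
Share of regions with an interval (left, percent), median width of the strongest interval (middle, bp) and its median percentile within the list (right) at paired gene ends and, to the right of each, at the lone ends they were set against; each point is 1 peak list, the black bar the mean and the whisker the SD of 8 lists. Divergent pairs lie between 92.6% and 94.8% and lone starts between 55.3% and 58.1%, while widths and percentiles of divergent pairs and lone starts share much of their range.

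A higher share at pairs than at lone ends did not always go with a higher percentile. Where an interval was present, its median percentile was 74.4 ± 1.6 at paired regions and 75.5 ± 0.7 at lone ends (exact permutation, adjusted p = 0.0656, higher in 2 of 8 lists). Divergent pairs had 78.0 ± 2.2 and lone starts 76.8 ± 0.6 (exact permutation, adjusted p = 0.136, higher in 6 of 8 lists). This difference was 1.84 in uncut lists and −2.45 when 15301 intervals were used, so its sign changed with the list length. Tandem pairs were weaker, at 66.6 ± 3.3 against 76.7 ± 0.8 at lone genes, lower in 8 of 8 lists (adjusted p = 0.0104, exact permutation). Convergent pairs with an interval were stronger, at 60.8 ± 7.2 against 43.8 ± 2.6 at lone far ends (exact permutation, adjusted p = 0.0104). This difference of 17.02 was 4.21 with 15301 intervals and 5.22 with an equal covered length, and neither passed.

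Intervals at pairs were also wider. The median width of the strongest interval was 1146 ± 151 bp at paired regions and 1001.4 ± 146 bp at lone ends, 144 bp more and higher in 8 of 8 lists (exact permutation, adjusted p = 0.0104). At divergent pairs it was 1210 ± 126 bp, against 1018 ± 147 bp at lone starts (adjusted p = 0.0104, exact permutation). Convergent pairs exceeded lone far ends by 247 bp with the same adjusted p, but by 111 bp with an equal covered length, which did not pass. The 38 bp by which tandem pairs exceeded lone genes did not pass (adjusted p = 0.219, exact permutation). Widths at paired regions ran from 824 to 1281 bp between lists, and the lowest belonged to the list that covered least, subconfluent H2A.Z.2 Exp2.

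Most paired regions had an interval in all 8 lists or in none, as did most regions at gene ends. The rest, present in some lists only, were 9.68% of paired regions and 8.37% of all regions at gene ends. Of the 1993 regions, 1150 (57.7%) had an interval in all 8 lists and 650 (32.6%) in none, whereas 27.9% of all 36259 regions at gene ends had one in all 8 lists and 63.8% in none. Divergent pairs were present in all 8 lists at 656 of 733 regions (89.5%) and in none at 29. Of those 29, 8 had an interval in a list as deposited. The counts for tandem pairs were 200 in all 8 and 111 in none of 371, and for convergent pairs 19 and 292 of 334.

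The size of the gap made little difference to divergent pairs. Their share was 92.6% ± 0.9 for gaps under 100 bp (n = 186), 93.5% ± 1.0 from 100 to under 250 bp (n = 328), 95.5% ± 0.9 from 250 to under 500 bp (n = 165) and 96.3% ± 1.7 from 500 to 1000 bp (n = 54). Tandem pairs had the lowest share where the genes nearly touched, 51.4% ± 3.7 for gaps under 100 bp (n = 27), and 63.6% to 70.9% in the wider classes. Convergent pairs stayed between 5.72% and 11.6%. At the limit of the rule, BUD23/STX1A and TMEM190/TMEM238 (gap of 997 bp each) had no interval in any list and LSR/USF2 (also 997 bp) had one in 8 lists with a mean percentile of 44.1. Just outside it, SLC26A6/CELSR3 (1001 bp) was present in 8 lists at a mean percentile of 28.3, and FICD/SART3 and DPCD/FBXW4 (1003 bp each) in 0.

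**Figure D2:**
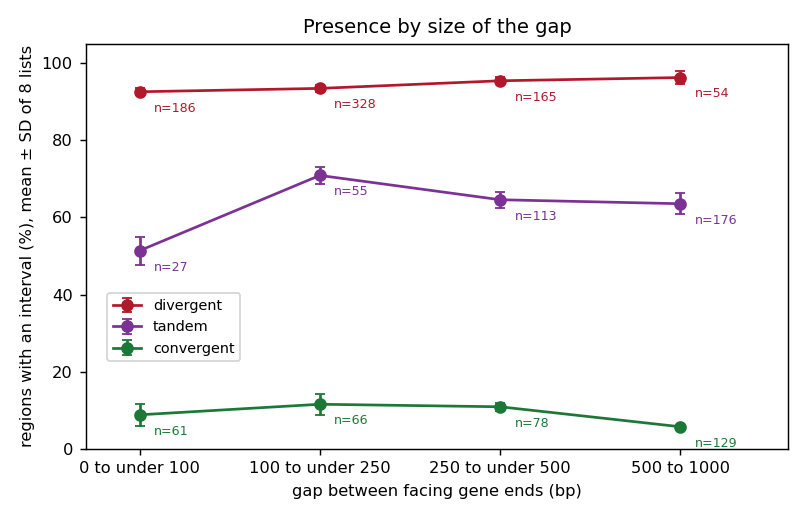
Share of paired regions with an interval (percent, mean and SD of 8 lists) by the size of the gap between the facing gene ends (bp), for divergent, tandem and convergent pairs, with the number of regions beside each point. Divergent pairs run from 92.6% to 96.3% over the 4 gap classes.

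At most divergent pairs with an interval, the strongest one reached over both facing starts, and coverage was higher 250 bp to either side of the gap centre than at the centre. In the lists, 69.7% ± 6.4 of the present divergent regions had a strongest interval that reached over both facing starts, and 89.9% ± 2.2 had intervals in the 1 kb flanks of both genes. The summit lay beyond a start, inside a gene, in 90.3% ± 1.1, and in the gap in 9.70% ± 1.14, near the 9.40% of the region that the gap made up. The median distance of the summit from the nearer of 2 starts was 179 ± 12 bp at divergent pairs. At lone starts, with only 1 start to measure from, it was 314 ± 13 bp. The smaller of 2 distances is lower by construction, so these are not like measures. The share of divergent regions covered by an interval peaked at 82.2% ± 3.6, 250 bp to one side of the gap centre, dipped to 73.3% at the centre and came back to 81.4% at 250 bp on the other side. Lone starts reached 42.9% ± 2.4 at 250 bp upstream of the start.

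At tandem pairs more regions had an interval on the gene start's side than on the far end's side. The far end's flank lies a gap away from the start, and which end an interval belongs to was not tested. Of the present tandem regions, 89.2% ± 3.0 had an interval in the flank on the gene start's side and 53.0% ± 2.4 in the flank on the far end's side. The median summit lay 119 bp inside the downstream gene, between 98 and 155 bp in the 8 lists, whereas at lone starts it varied from 173 bp before to 99 bp after the start. Coverage peaked at 48.0% ± 4.6, 250 bp inside the gene. In convergent pairs the median summit lay 1049 ± 71 bp from the gap centre, near the edge of the region, and 73.6% ± 2.6 of the present regions had an interval in the flank of 1 gene only. Among the positions profiled, coverage of convergent pairs was highest 2800 bp from the gap centre, outside the region, at 6.55% ± 0.90.

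**Figure D3:**
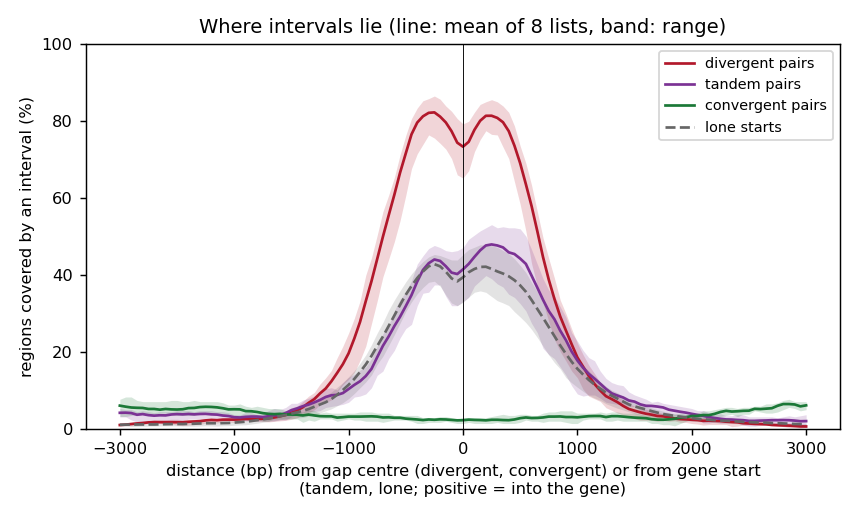
Share of regions covered by an interval (percent; line, mean of 8 lists; band, lowest to highest list) by distance in bp from the gap centre for divergent and convergent pairs and from the gene start for tandem pairs and lone starts. Divergent pairs peak at 82.2% and lone starts at 42.9%, each with a dip near 0, and convergent pairs show no rise at the centre.

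CpG-rich promoters, which lack methylation and are often active in many tissues, are a known site of H2A.Z. The CpG ratio, observed over expected in the 300 bp promoter window (250 bp before to 50 bp after the start, mean of both genes of a divergent pair), had a median of 0.865 in divergent pairs, 0.721 in tandem pairs and 0.753 at lone starts. Within each class of this ratio divergent pairs were present more often than lone starts. A divergent region holds the starts of both genes and can be present through either, whereas a lone region holds only its own start. The part of this in the differences within classes was not tested, so they do not show an excess per start. At ratios from 0.75 to 1 the shares were 95.4% ± 0.8 for divergent pairs (n = 435), 82.8% ± 1.2 for tandem pairs (n = 145) and 78.9% ± 1.0 for lone starts (n = 3066). At ratios from 0.25 to 0.5 they were 82.1% ± 4.2 for divergent pairs (n = 21), 40.5% ± 3.5 for tandem pairs (n = 67) and 23.6% ± 1.1 for lone starts (n = 1099). Only 7 divergent pairs had a ratio under 0.25, with a share of 26.8% ± 5.1. The 29 divergent pairs absent from all 8 lists had a median ratio of 0.654, against 0.872 for the 656 present in all 8.

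**Figure D4:**
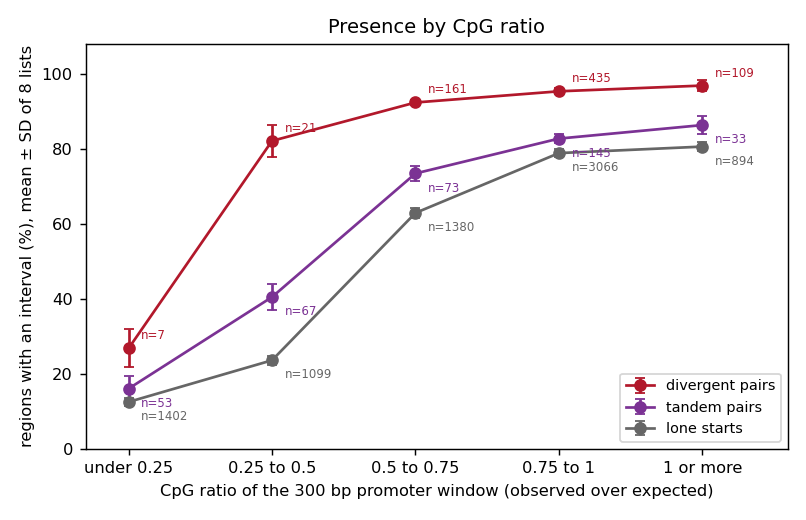
Share of regions with an interval (percent, mean and SD of 8 lists) by the CpG ratio of the 300 bp promoter window, for divergent pairs, tandem pairs and lone starts, with the number of regions beside each point. Divergent pairs lie above lone starts in all 5 classes, with 82.1% and 23.6% at ratios from 0.25 to 0.5. A divergent region holds the starts of both genes and a lone region only its own, which the shares do not allow for.

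Some short sequences were also more or less frequent in the promoter windows of divergent pairs than in those of lone starts. Gaps were under 250 bp in 70.1% of divergent pairs, so the window of the right gene can also hold the left gene's start. Windows of lone starts hold 1 start, and the part of this in the shares was not tested. An ETS match (CCGGAAG on either strand, in the window of the gene on the right of a divergent pair or of the lone gene) was found in 26.7% of divergent pairs, 10.9% of lone starts and 14.4% of all 15101 promoters. A YY1 match (AAGATGGC) was found in 7.91%, 3.16% and 3.91% of these. The GC box was found in 71.5% of divergent pairs and 57.3% of lone starts, and CCAAT in 42.0% and 35.5%. TATAAA went the other way, at 3.96% of divergent pairs, 10.8% of lone starts and 9.71% of all promoters. Divergent pairs with an ETS match were present at 97.7% ± 0.7 and those without at 92.5% ± 0.8, and lone starts with one at 85.3% ± 0.7 and without at 53.2% ± 1.0. The YY1 match went with 99.4% ± 0.9 of 58 divergent pairs and 93.4% ± 0.8 of those without. With and without CCAAT the shares were close, at 94.4% and 93.6% of divergent pairs and 56.2% and 56.9% of lone starts. TATAAA went with lower shares, 83.2% against 94.4% of divergent pairs and 29.6% against 59.9% of lone starts. For the GC box they were 95.7% against 89.4% and 72.5% against 35.4%. Whether these differences follow the CpG ratio was not tested.

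The strongest paired regions were mostly divergent pairs. LANCL1/CPS1 had the highest mean percentile, 99.4 ± 0.7, and never fell under 97.9 in the 8 lists. Its 100 bp gap on chromosome 2 lies between the facing annotated ends of LANCL1, at 210477584, and CPS1, at 210477685. CPS1 encodes carbamoyl phosphate synthetase, the entry enzyme of the urea cycle in liver and intestine. Whether CPS1 transcripts in these cells start at this annotated end was not tested. TSSK6/NDUFA13 (99.1 ± 0.8), AAK1/ANXA4 (99.1 ± 0.6), DDX31/GTF3C4 (99.0 ± 0.9) and FAM227B/DTWD1 (98.9 ± 0.8) followed. NDUFA13 is a subunit of mitochondrial complex I, ANXA4 a calcium-dependent membrane binder, and GTF3C4 part of the TFIIIC factor of RNA polymerase III. These 5 differed by less than their spread over lists. TBX6/YPEL3 (98.8 ± 0.9) and PLA2G12A/CFI (98.7 ± 1.0) were the strongest tandem pairs. CFI encodes complement factor I.

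The widest intervals were not the strongest. PSD/FBXL15 had a mean width of 3420 ± 1156 bp and a mean percentile of 95.3, and SBF2/ADM, whose right gene encodes the peptide hormone adrenomedullin, 3332 ± 1464 bp and 87.1. In SBF2/ADM the width ran from 990 to 4841 bp between lists. FBXL15/CUEDC2 (3248 ± 1441 bp) shares FBXL15 and, in most lists, its interval with PSD/FBXL15. PPP1R13L/POLR1G (3036 ± 208 bp) and the convergent PPFIA3/HRC (3003 ± 507 bp) were wide in all lists, PPFIA3/HRC never under 2432 bp.

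Among convergent pairs CRELD1/PRRT3, with a gap of 135 bp on chromosome 3, had a mean percentile of 96.5 ± 2.4. EXTL1/SLC30A2, whose right gene encodes a zinc transporter, had 95.1 ± 6.1, and FXYD3/LGI4 94.1 ± 2.9. FXYD3 encodes a regulator of the sodium pump. All of them were present in 8 lists, unlike most convergent pairs, and the strand gives no start of either gene in these gaps.

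Among pairs of known and unknown orientation together, 17 of 34 with a mitochondrial ribosomal protein gene, 11 of 29 with a cytosolic ribosomal protein gene and 12 of 23 with a complex I gene were divergent, beside 733 of all 1993 pairs. Of the 34 pairs with a mitochondrial ribosomal protein gene, 26 were present in all 8 lists, among them all 17 divergent ones, with HELQ/MRPS18C (93.7 ± 3.1) and MRPL46/MRPS11 (93.4 ± 5.2) highest. MRPL46 and MRPS11 encode proteins of the large and the small mitochondrial subunit. Of the 29 pairs with a cytosolic ribosomal protein gene 18 were, again with all 11 divergent ones, led by VPS52/RPS18 (92.3 ± 4.8). For complex I genes and their assembly factors it was 16 of 23 pairs and 11 of 12 divergent ones. These counts stand beside the 57.7% of all 1993 pairs and the 89.5% of all divergent pairs that were present in all 8 lists.

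DNA repair genes had 47 pairs, of which 31 were present in all 8 lists, 25 of them among 29 divergent ones. Among all pairs 57.7% were present in all 8 lists, and among all divergent pairs 89.5%. TMEM258/FEN1 had a mean percentile of 97.3 ± 2.2, IL5/RAD50 93.2 ± 2.3 and ORMDL1/PMS1 90.6 ± 13.2. FEN1 is the flap endonuclease of Okazaki fragment processing, RAD50 belongs to the double-strand break complex MRN, and PMS1 to mismatch repair. Absent from all 8 lists were 11 of the 47 (32.6% of all pairs were), among them the convergent HPDL/MUTYH and DDB2/ACP2. In NPAT/ATM, with a 428 bp gap on chromosome 11, NPAT drives histone gene transcription and ATM is the kinase of the double-strand break response. It had percentiles of 90.2, 91.3, 89.1 and 71.9 in postconfluent and 90.1, 91.9, 92.1 and 83.1 in subconfluent lists (H2A.Z.2 Exp1 and Exp2, then H2A.Z.1 Exp1 and Exp2). The ranges of the states overlapped.

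The counts by gene family that follow stand beside the 57.7% of all 1993 pairs that were present in all 8 lists. Cell cycle and replication genes had 15 of 23 pairs in all 8 lists, with the divergent PCNA/CDS2 at 79.6 ± 9.6, and chaperones 9 of 15, with BAG1/CHMP5 at 84.3 ± 9.4. Enterocyte genes had 4 pairs, 2 of them present in all 8 lists, 1 in some and 1 in none. The median of their mean percentiles, where they had an interval, was 47.9. TRMT10A/MTTP, whose right gene loads lipid onto apolipoprotein B in enterocytes, was present in all 8 lists at 98.0 ± 2.3, whereas SYTL3/EZR, a convergent pair at the far end of the ezrin gene, was present in none. Genes of H2A.Z and chromatin had 3 of 6 pairs in all 8 lists, all of them divergent. Among these were GYS1/RUVBL2 (79.2 ± 12.3) and PLOD3/ZNHIT1 (54.9 ± 10.2). RUVBL2 and ZNHIT1 are subunits of remodellers that place H2A.Z. Zinc finger genes named ZNF had 25 of 42 and olfactory receptors 1 of 7, where the divergent OR11A1/OR2H1 was absent from all lists.

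Textbook bidirectional and clustered pairs gave 12 members, 9 of them present in all 8 lists (57.7% of all pairs were). IMMP1L/ELP4 had a mean percentile of 91.8 ± 6.3, SARS2/MRPS12 87.5 ± 6.3 and KBTBD4/NDUFS3 85.1 ± 8.0. TAP1/PSMB9, which encodes the peptide transporter of antigen presentation and an immunoproteasome subunit, had percentiles of 89.9, 86.0, 75.7 and 67.8 in postconfluent and 75.3, 54.9, 54.7 and 27.1 in subconfluent lists, in the same list order as above. In each of the 4 pairs of lists that shared an isoform and a sequencing run the postconfluent list had the higher percentile, the ranges of the states overlapped, and the score difference did not pass (1.10, SE 0.362, limma adjusted p = 0.329 over all regions present in the 8 lists, and 0.180 with each such pair as a block). COL4A1/COL4A2, the collagen IV chains of basement membranes, had an interval in 1 list, subconfluent H2A.Z.2 Exp1, at a percentile of 14.3. CSF1R/PDGFRB, receptors of macrophages and mesenchymal cells, was present in 4 lists.

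Whether paired gene ends differ between growth states or isoforms was asked of the share, the percentile and the width. Intervals were present at 63.9% ± 0.8 of paired regions in 4 postconfluent lists and 62.9% ± 1.2 in 4 subconfluent lists (2-sided exact permutation, p = 0.200, adjusted p = 0.600 over 12 tests). They were present at 62.8% ± 1.3 in 4 H2A.Z.2 lists and 64.0% ± 0.5 in 4 H2A.Z.1 lists (exact permutation, p = 0.143, adjusted p = 0.600). None of the 12 exact permutation tests passed after adjustment, where the lowest unadjusted exact permutation p was 0.114. Before adjustment an exact permutation test of 4 against 4 lists can reach p = 0.0286 at the lowest. A test at this floor could not pass alone after adjustment over the 12 tests. Within runs the share was higher in postconfluent than in subconfluent lists by 1.35 and 1.81 percentage points for H2A.Z.2 and by 0 and 1.15 for H2A.Z.1 (Exp1 and Exp2). Relative to lone ends these differences were 2.02 and 1.23 for H2A.Z.2 and 0.424 and 1.63 for H2A.Z.1, higher in postconfluent cells in 4 of 4 run-matched pairs of lists (mean 1.33, 2-sided exact sign-flip permutation, p = 0.125). At divergent pairs the median percentile was lower in postconfluent than in subconfluent lists in 4 of 4 such pairs, with differences of −0.234 and −1.98 for H2A.Z.2 and −1.89 and −1.95 for H2A.Z.1 (exact sign-flip permutation, p = 0.125). An exact sign-flip test over 4 pairs cannot go under p = 0.125, so these tests could not pass. In Exp2, where all lists shared a run, H2A.Z.2 minus H2A.Z.1 was 0.0502 percentage points in postconfluent and −0.602 in subconfluent cells. In Exp1 isoform and sequencing run cannot be told apart, and in bulk chromatin fewer cells with H2A.Z at a site cannot be told apart from less H2A.Z per cell.

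Few paired regions were present in 1 group only. In all 4 postconfluent lists and no subconfluent list there were 3 members (0.151%), where 0.108% of all regions at gene ends were, and the reverse held for 0 members and 0.0552% of all regions. The 3 were H2AC17/H2BC17, H3C7/H2BC9 and the tandem BLOC1S1/RDH5, which had an interval in 5, 5 and 4 of the lists as deposited. Of isoforms, 0 members were present in all H2A.Z.2 lists only (0.00276% of all regions) and 2, FAM229A/TSSK3 and ATP6V0C/AMDHD2, in all H2A.Z.1 lists only (0.0359%). FAM229A/TSSK3 had percentiles of 48.5, 43.5, 30.8 and 28.2 in the H2A.Z.1 lists and an interval in 7 of the 8 lists as deposited. Within H2A.Z.2, 19 members (0.953%) were present in both postconfluent lists only and 2 (0.100%) in both subconfluent lists only, where 0.469% and 0.276% of all regions were. Of these 19 and 2 members, 6 and 1 also had no interval in the other state's H2A.Z.2 lists as deposited. With lists cut to an equal covered length the counts of 19 and 2 became 6 and 7. That setting also changes the number of intervals used, and the cause was not tested. Within H2A.Z.1 there were 9 and 6 (0.414% and 0.361% of all regions). Of those, 1 and 0 had no interval in the other state's H2A.Z.1 lists as deposited. In postconfluent cells 3 members were present in both H2A.Z.2 lists only and 8 in both H2A.Z.1 lists only (0.0772% and 0.331%), and in subconfluent cells 1 and 14 (0.102% and 0.419%).

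Histone gene pairs were present in fewer lists than most divergent pairs, and in more postconfluent than subconfluent ones. Of 19 pairs with a core or linker histone gene 6 were present in all 8 lists, against 1150 of all 1993 pairs. Of the 10 divergent ones 3 were, against 656 of all 733 divergent pairs. These genes mostly encode histones that are made in S phase, and the list held 73 of them on chromosomes 1 to 22. Divergent pairs such as H2AC17/H2BC17 lie in the cluster on chromosome 6, and H2AC25/H2BC26 lies on chromosome 1. Divergent histone pairs with an interval numbered 6, 9, 6 and 7 in the postconfluent lists and 3, 4, 4 and 3 in the subconfluent lists (H2A.Z.2 Exp1 and Exp2, then H2A.Z.1 Exp1 and Exp2), so the states did not overlap. Over all 19 pairs the numbers were 12, 16, 13 and 13 in postconfluent and 7, 9, 10 and 8 in subconfluent lists. The other 723 divergent pairs had 679 to 687 present in postconfluent and 676 to 686 in subconfluent lists.

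H2AC17/H2BC17, whose 239 bp gap is printed above, had percentiles of 43.0, 45.7, 62.7 and 38.8 in the postconfluent lists and no interval in the 4 subconfluent lists. H3C7/H2BC9 had 3.3, 54.7, 17.1 and 19.4 in the postconfluent lists and none in the subconfluent ones. H2AC25/H2BC26 on chromosome 1 was present in all 8 lists at a mean percentile of 64.2. H2BC4/H2AC6 was present in none. The gaps of 9 divergent histone pairs were 193 to 247 bp long and 38.4% to 48.9% G and C, with TATAAA in 7 and CCAAT in 9 of them.

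The histone counts depended on how the lists were cut. With whole lists the 19 pairs had 14 to 16 present in postconfluent and 9 to 14 in subconfluent lists, and with an equal covered length 6 to 10 and 3 to 9, so that the ranges met or overlapped. The histone list was chosen with earlier results of these data known, its genes lie close together, and near-identical copies can share 85 bp reads. The part of read assignment in these counts was not tested.

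**Figure D5:**
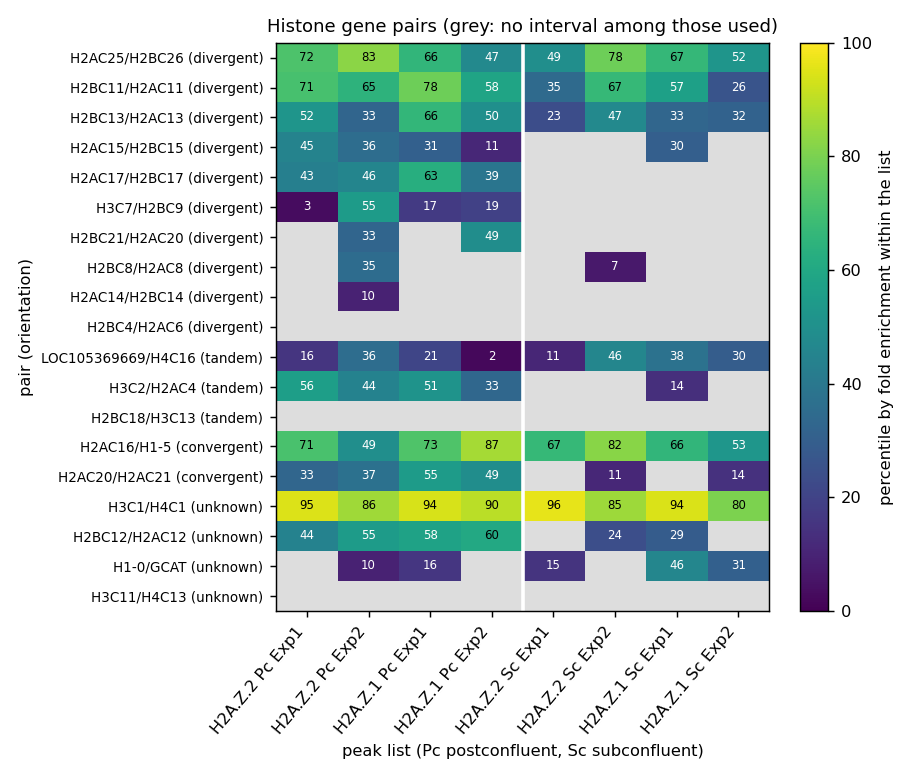
Percentile by fold enrichment within the list (colour and number; grey, no interval among those used) of the 19 pairs with a histone gene, by peak list, postconfluent lists left of subconfluent lists. H2AC17/H2BC17 and H3C7/H2BC9 have values in the 4 postconfluent lists only, and H3C1/H4C1 lies at 80.1 or more in all 8.

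Regions present in all 8 lists were ranked within each list, and their normal scores compared with limma over 10099 regions, of which 1150 were paired. For state (postconfluent minus subconfluent) 5 regions passed an adjusted p of 0.05 (0.0495% of those tested), and 0 of the 1150 paired regions. With each postconfluent list set against the subconfluent list of its isoform and run as a block, 16 regions passed (0.158%), again with 0 of the paired ones. At an unadjusted p under 0.05 there were 85 paired regions (7.39%), where 9.54% of all regions were. For isoform and for the interaction 0 regions passed, with 39 and 32 paired regions at an unadjusted p under 0.05 (3.39% and 2.78%, against 3.84% and 3.19% of all). The nearest to passing for state was ZNF214/NLRP14, a divergent pair on chromosome 11, with percentiles of 22.4, 19.97, 39.1 and 35.1 in postconfluent and 70.4, 62.0, 83.1 and 78.5 in subconfluent lists. All 4 postconfluent values lay under all subconfluent ones, and the score difference was −1.59 (SE 0.341, limma adjusted p = 0.0950, and 0.0541 with the run-matched block). TEAD3/TULP1, a tandem pair at TEAD3, a DNA-binding partner of YAP, had 88.6, 94.4, 86.4 and 98.0 in postconfluent and 58.4, 64.2, 70.2 and 57.0 in subconfluent lists (score difference 1.57, SE 0.366, limma adjusted p = 0.143).

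Ranked by −log10 p in place of fold enrichment, 4 of 1150 paired regions passed for state, where 42 of all 10099 regions did (0.416%). PNPLA2/CRACR2B had a score difference of 1.59 (SE 0.311, limma adjusted p = 0.0178) and TEAD3/TULP1 1.51 (adjusted p = 0.0302), while ZNF214/NLRP14 had −1.74 (adjusted p = 0.00837) and SNRPD2/QPCTL −1.37 (adjusted p = 0.0456). PNPLA2 encodes the lipase that starts the breakdown of stored triglyceride, and SNRPD2 a core protein of the spliceosome. With whole lists 2 others of 1222 paired regions passed, where 12 of all 10776 regions did (0.111%). They were BIRC7/NKAIN4 (2.44, SE 0.337, limma adjusted p = 0.00264) and TROAP/C1QL4 (1.92, SE 0.348, adjusted p = 0.0221). For isoform (H2A.Z.2 minus H2A.Z.1) the lowest p was that of LSM1/BAG4, with percentiles of 92.1, 96.8, 99.3 and 99.4 in the H2A.Z.2 lists and 75.2, 83.3, 77.4 and 86.4 in the H2A.Z.1 lists (score difference 1.51, SE 0.348, limma adjusted p = 0.678). TIGD4/ARFIP1 came next (1.33, SE 0.347, limma adjusted p = 0.999). Its values of 44.6 and 52.6 in postconfluent H2A.Z.1 lists stood apart from 88.0 to 97.3 in the other 6 lists. For the interaction VIPAS39/AHSA1 and MPLKIP/SUGCT had the lowest p, both with a limma adjusted p of 1.00.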

How the data were processed

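The members and gene lists were chosen with earlier results of these data known. Reads were single-end of 85 bp and aligned to hg38. BWA and deepTools are named in the submitters' processing notes. For the peak caller, its control and any use of the spike-in chromatin, nothing is given in the sources used here. All 8 deposited interval lists, made for each sample and not pooled, hold from the authors a score, a fold enrichment ratio over background, −log10 p and −log10 q values and a summit offset per interval. Each interval's values are the authors' own.

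Gene ends came from RefSeq (GRCh38.p14), strands and promoter letters from its promoter table (15101 of 19126 genes). Shares, medians and summits were computed in Python 3.11.15 (scipy 1.17.1), and ranks of regions present in all 8 lists were compared in limma 3.58.1 (R 4.3.3) without a replicate block. Pc and Sc lists of the same isoform and number shared a sequencing run and deviated together, with correlations of 0.147 (H2A.Z.2) and 0.201 (H2A.Z.1), so state was also compared with these pairs as a block. Lists of the same number in different isoforms did not pair (−0.0553 to 0.0538). On simulated state shifts of 1, 2 and 3 score units among 10099 regions, limma found 4 of 67, 41 of 67 and 59 of 66, with 7 false calls. Named regions follow rules by strength, width, presence, p, gap and gene list. Alternatives were list length, overlap, window, distance, ranking, block and each list left out, and, chosen after seeing the data, a stricter match of starts and the run-matched block.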

Additional observations from a re-analysis of the deposited data

Results flagged for a closer look

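The median percentile of paired regions moved in opposite directions with state in the 2 isoforms. Postconfluent minus subconfluent was 1.39 and 0.103 in H2A.Z.2 (Exp1 and Exp2, mean 0.747) and −0.590 and −0.365 in H2A.Z.1, and the difference was not tested. At divergent pairs alone all 4 differences were negative (−0.234 and −1.98 in H2A.Z.2, −1.89 and −1.95 in H2A.Z.1).

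MROH6/NAPRT, a pair with a gap of 101 bp, was present in both postconfluent H2A.Z.2 lists (percentiles 42.5 and 62.0) and both subconfluent H2A.Z.1 lists (34.4 and 52.4) and in no other list after the lists were cut, with a mean percentile of 47.8. It had an interval in 7 of the 8 lists as deposited, and the difference was not tested.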

How the results depend on the processing

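The share of paired regions above that of lone ends, for all pairs and each orientation, kept its direction and its side of the threshold under all alternatives run, from 11.5 to 38.5 percentage points for all pairs, 34.9 to 39.1 for divergent, 5.29 to 16.4 for tandem and 3.80 to 7.83 for convergent pairs. The percentile difference of all pairs was 0.362 with whole lists, 0.271 at −log10 q of at least 5, −5.0005 with 15301 intervals, −4.70 at equal covered length, −2.61 with lone ends 50 kb from a neighbour, −2.34 against either end of lone genes and −1.499 with matched starts (the last 5 passed). For divergent pairs it was 1.84 with whole lists and 1.85 at −log10 q of at least 5 (both passed), −2.45 with 15301 intervals, −1.71 at equal covered length and −0.0959 with lone ends 50 kb away. For convergent pairs it was 4.21 with 15301 intervals and 5.22 at equal covered length, and the width difference at equal covered length 111 bp, none of which passed. The width difference of tandem pairs was 111 bp with gaps of at most 500 bp, which passed. The cause was not tested. Leaving out each list in turn changed no call of these 12.

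State and isoform differences, none of which passed, changed sign in these cases. With whole lists the state difference against lone ends was 0.0120 in percentile and 6.38 bp in width, and isoform gave 0.751 in share and −1.08 in percentile against lone ends and −5.08 in percentile. With 15301 intervals the state percentile was −1.76. At equal covered length state gave −1.59 in share and −5.67 in percentile, and isoform 1.57 in share and 0.0559 in share against lone ends. Leaving out each list, the state percentile ran from −0.571 to 0.851, its width against lone ends from −31.7 to 0.667, the isoform share against lone ends from −0.850 to 0.335 and its percentile against lone ends from −0.450 to 0.577.

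Counts of regions in 1 group only moved by over 1.5 times as follows. With whole lists they were 1 for both isoforms in subconfluent cells, 1 for H2A.Z.1 in both states, 11 for postconfluent H2A.Z.2, 1 for subconfluent H2A.Z.1, and 0 for H2A.Z.2 in postconfluent and in subconfluent cells. With 15301 intervals they were 1 for H2A.Z.2 and 1 for H2A.Z.1 in both states, 8 for subconfluent H2A.Z.2, 21 and 15 for post- and subconfluent H2A.Z.1, 8 and 17 for H2A.Z.2 and H2A.Z.1 in postconfluent cells and 9 for H2A.Z.2 in subconfluent cells. At equal covered length they were 0 and 1 for post- and subconfluent cells in both isoforms, 1 and 0 for H2A.Z.2 and H2A.Z.1 in both states, 6 and 7 for state in H2A.Z.2, 34 for subconfluent H2A.Z.1, 31 and 4 for isoform in postconfluent and 4 and 2 in subconfluent cells. With an overlap of 200 bp they were 1 for subconfluent H2A.Z.2 and 5 for H2A.Z.1 in postconfluent cells, and by summits 7 and 5 for isoform in postconfluent cells and 5 for H2A.Z.2 in subconfluent cells.

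In limma, calls among all regions for state were 0 at equal covered length and with 15301 intervals, 12 with whole lists (2 paired), 42 ranked by −log10 p (4 paired) and 13 with the replicate block, where state in H2A.Z.2 gave 1, and 16 with run-matched pairs of lists as the replicate block. State in H2A.Z.1, 2 calls, gave 0 with whole lists, 15301 intervals, equal covered length and −log10 p. Neither block added a paired call. No state or isoform test of the 12 passed with a block, but none could. Exact permutation within Exp1 and Exp2 cannot go under p = 0.0556, and the exact sign-flip over run-matched pairs not under 0.125. Leaving out each list gave 0 to 11 calls for state, 0 to 1 for state in H2A.Z.2 and 0 to 2 in H2A.Z.1, with 0 paired calls each time. State had 11 calls without postconfluent H2A.Z.1 Exp1, 2 without subconfluent H2A.Z.2 Exp1 and 0 without postconfluent H2A.Z.2 Exp1, subconfluent H2A.Z.2 Exp2 or either Exp2 list of H2A.Z.1. Percentiles of named regions shift by construction when lists get shorter or longer. Read depth is unknown, so an absent interval is no evidence of absent H2A.Z.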
